A study of Mus musculus with 2 samples.

Results

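The genes described here are 39 members of the interferon response and double-stranded RNA (dsRNA) sensing machinery, taken as a named list from the 49997 genes of a RefSeq table on GRCm38, the assembly of mm10. A peak belonged to a member when its summit lay in the member's gene span, also where another gene shares that span.

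The peaks mark N6-methyladenosine (m6A), a methyl group on internal adenosines of mRNA, in the whole uterus of wild-type mice on day 4 of gestation, counting the day of the vaginal plug as day 1. Females were 6 to 8 weeks old at mating. The groups are 1 sample of polyA RNA precipitated with an anti-m6A antibody (IP) and 1 input sample of the same day, with the cell type given as mixed. Neither has a replicate, so no test between samples is possible and all values describe 1 peak list. All peaks are named D8NegIP-Posinput in the list, whereas the sample is labelled day 4. Whether the list belongs to day 4, and which input set its background, is therefore unsettled and touches each value below. Of the 39 members, 28 had at least 1 peak (71.8%, 95% Wilson interval 56.2 to 83.5), and they held 54 of the 26584 deposited peaks. Among all 21900 protein-coding genes, 9831 had a peak by the same rule (44.9%). Of the 37 protein-coding members, 28 had a peak (75.7%). Members were chosen with earlier results of these data known, so their share describes the list and is no independent result.

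Cells recognise long dsRNA with the helicase MDA5, the endosomal receptor TLR3, the kinase PKR and the oligoadenylate synthetases. The adaptor MAVS and the kinases TBK1 and IKKε pass the signal to interferon regulatory factors, which switch on interferon genes. Secreted interferon binds paired receptors, and a complex that holds STAT2 and IRF9, called ISGF3, then binds the interferon-stimulated response element in the promoters of effector genes. ADAR edits adenosines in cellular dsRNA and so keeps it from being sensed. In the uterus, interferon-epsilon is made by the epithelium without infection, and the conceptus of ruminants signals pregnancy through an interferon.

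Promoter windows from RefSeq (GRCm38.p6, 250 bases before to 50 after each listed start) were matched by gene identifier for 34 members. Those of Oas2, Mx1, Mx2, Ifi27 and Zbp1 were not among them. The core of the response element was searched as GAAANNGAAA on both strands, with overlapping matches counted. It was present in a window of 12 of the 34 members (35.3%, 21.5 to 52.1), against 689 of 17492 protein-coding genes (3.94%). By role it was present in 7 of 11 effectors, 3 of 7 sensors and dsRNA-binding proteins, 1 of 8 Irf factors, 1 of 5 receptors and Stat2, and 0 of 3 adaptor and kinase genes. Of 27 matched members with an m6A peak 10 had it, and of 7 without a peak 2 had it. These members were listed as interferon genes, so the motif describes the list and is no result of the m6A data. The windows below, of 30 bases in the direction of the gene with the matches in capitals, show the element in members with peaks and in 2 without, Oas3 and Bst2. In Isg15 there are 3 overlapping matches, and in Gbp3 and Bst2 2 each. The match of Eif2ak2 begins at base 19 of the transcribed part and the others lie before the listed start. Matches of Ifih1 and Irf2 and the further ones of Ifit1 and Ifit3 are not shown.
Eif2ak2, chr17:78882535-78882564, minus strand: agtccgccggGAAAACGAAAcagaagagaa
Oas3, chr5:120777715-120777744, minus strand: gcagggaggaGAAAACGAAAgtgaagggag
Stat2, chr10:128270266-128270295, plus strand: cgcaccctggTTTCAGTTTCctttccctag
Ifit1, chr19:34640775-34640804, plus strand: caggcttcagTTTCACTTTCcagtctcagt
Ifit3, chr19:34583363-34583392, plus strand: cagtggtaagTTTCACTTTCctcttctggt
Isg15, chr4:156200871-156200900, minus strand: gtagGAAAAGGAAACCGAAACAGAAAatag
Rsad2, chr12:26456553-26456582, minus strand: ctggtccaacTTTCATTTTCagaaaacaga
Gbp2, chr3:142620594-142620623, plus strand: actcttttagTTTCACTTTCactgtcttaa
Gbp3, chr3:142559992-142560021, plus strand: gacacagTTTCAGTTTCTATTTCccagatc
Bst2, chr8:71537580-71537609, minus strand: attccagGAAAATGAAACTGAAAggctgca

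Enrichment at the summit is the peak caller's fold enrichment, the IP pileup plus 1 over the background plus 1. Over the 28 members with a peak, the highest value per gene had a median of 9.76 and ranged from 4.19 in Oasl1 to 18.0 in Adar. The same median over all protein-coding genes with a peak was 9.36. It lay above that of the members when only peaks with a −log10 q of at least 5 were used (9.85 against 9.78), or a pileup of at least 10 (10.2 against 9.78). Members were thus close to the general level. In 12 of the 39 members (30.8%) the highest value was at least 10, against 20.2% of all protein-coding genes. Counted only over genes with a peak, the shares were 42.9% and 45.0%. No neighbours in the members' order of highest values, in any of 27 pairs, had intervals that lay apart. Each fold is followed by its 95% interval, the exact Poisson limits of the IP fragment count with the background taken as known. These intervals cover counting error only.

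**Figure D1:**
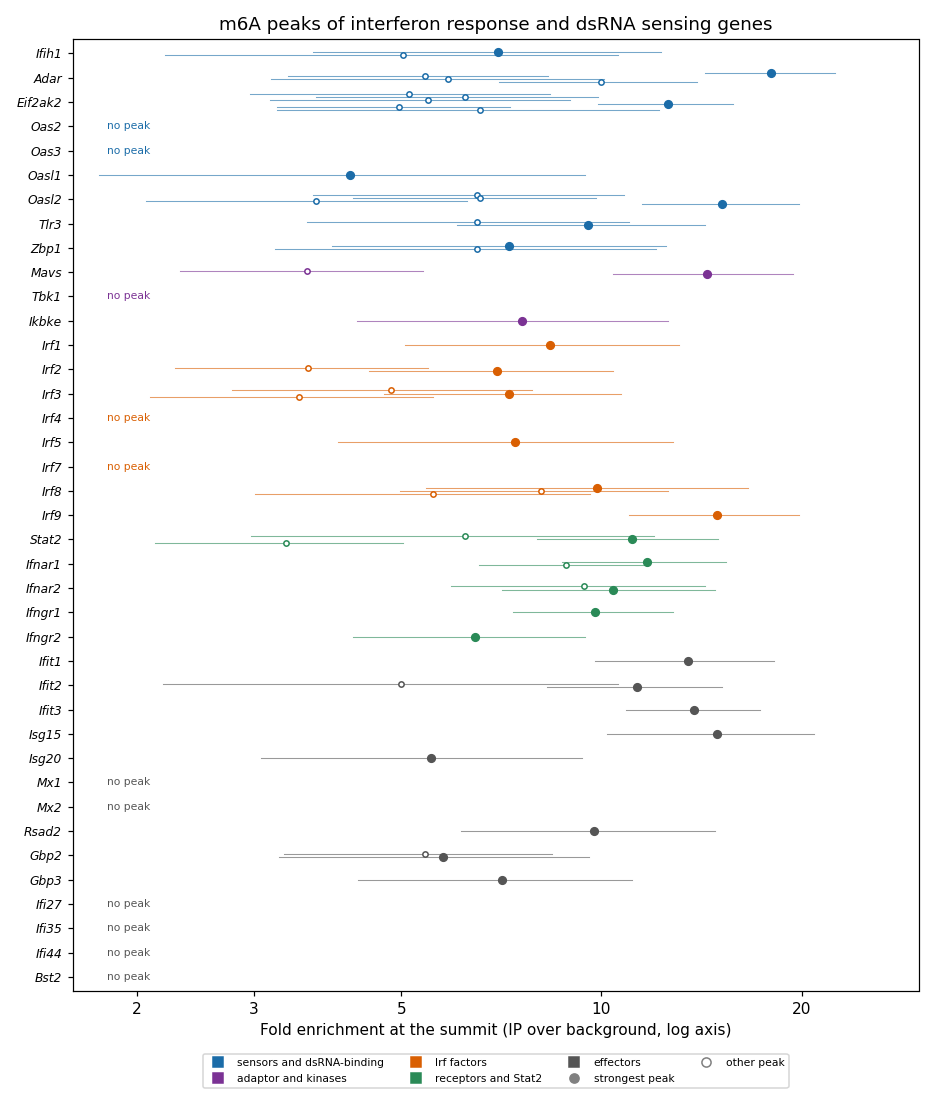
Fold enrichment at the summit (log axis) of all 54 peaks in the 39 members, in order of role. Filled points are each member's strongest peak, open points its other peaks, and lines are 95% Poisson intervals of counting error. Adar stands highest at 18.0 and Oasl1 lowest among strongest peaks at 4.19, and 11 members have no peak.

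The counts by role that follow are of few genes each and are read against the 44.9% of all protein-coding genes. Sensors and dsRNA-binding proteins had peaks in 7 of 9 cases (77.8%, 45.3 to 93.7), with 21 peaks in all, the most of any role. Adar held the strongest site of the list, with 18.0 (14.3 to 22.5) from 76 IP fragments over a background of 3.27, at chromosome 3, 89734697 to 89736184. That interval lay above those of 13 members and overlapped those of the other 14 with a peak. The summit was 4846 bp downstream of the nearest listed start and 54.1% along the span. A second site of Adar, at 89750464 to 89751290, had 10 (7.01 to 13.9) and lay 2363 bp from the 3′ end, and the other 2 had 5.42 and 5.88. Compared with all protein-coding genes that have a peak, Adar's highest value stood above 90.9%.

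Eif2ak2, which encodes the dsRNA-activated kinase PKR, had the most peaks of any member, 6, but 3 of them lay in spans shared with other genes. Adar and Oasl2 had 4 each, none in a shared span, so this rank depends on counting shared spans. Its strongest, 12.6 (9.88 to 15.8) from 72 fragments at chromosome 17, 78853250 to 78854327, lay 3314 bp from the 3′ end. Another 4 lay within the last 5 kb of the span, with values from 4.96 to 6.23, and 2 of these fell where the transcribed pseudogene Gm6548 shares the span. The sixth lay at the transcription start and is described further on. So most of the peaks in the Eif2ak2 span stood in a row toward its 3′ end. The peaks carry no strand, so those in the shared span cannot be assigned to PKR mRNA or to Gm6548.

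The 2′-5′-oligoadenylate synthetase family split. Oasl2, a ubiquitin-like member of it, had 4 peaks and 15.2 (11.5 to 19.8) from 54 fragments at chromosome 5, 114910730 to 114911579, 1081 bp from its 3′ end. Its other sites had 6.57, 6.50 and 3.72 and lay in the first 52.3% of the span. The neighbouring Oasl1, which dampens Irf7 translation, had 1 peak of 4.19 (1.75 to 9.43) from 4 fragments over a background of 0.192. The intervals of both strongest sites did not overlap by the deposited value. With nothing added to pileup and background, these sites had 20.7 in Oasl2 and 20.8 in Oasl1. The difference between them thus holds only with the added 1. Oas2 and Oas3, enzymes that make 2′-5′-linked oligoadenylates on dsRNA, had no peak.

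The sensor of long dsRNA, Ifih1 (MDA5), had 2 weak peaks, of 6.98 (3.68 to 12.3) from 10 fragments and 5.03 (2.2 to 10.6) from 5. Both lay near the 5′ side of its span of 50638 bp, 13.3% and 4.94% along it. Tlr3 had 9.54 (6.07 to 14.3) and 6.50 (3.60 to 11.0), both toward the 3′ end. Zbp1, a sensor of Z-form nucleic acid, had 7.26 (3.93 to 12.5) and 6.50 (3.22 to 12.1), which lay 597 and 1217 bp from the low-coordinate end of its span. The intervals of Ifih1, Tlr3 and Zbp1 overlapped one another, so these values set no order.

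Of the adaptor and the kinases, Mavs had the strongest site, 14.4 (10.4 to 19.4) from 41 fragments at chromosome 2, 131246341 to 131247063. It lay 1504 bp from the 3′ end, and a weaker site of 3.60 (2.32 to 5.38) lay 2514 bp from it. MAVS is the mitochondrial adaptor of MDA5. Ikbke, the gene of IKKε, had 7.58 (4.29 to 12.6) from 13 fragments, 233 bp from its 3′ end, where the long non-coding gene Gm28913 shares the span. Tbk1, the related kinase that phosphorylates IRF3, had no peak over its 40340 bp.

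The interferon regulatory factor genes had peaks in 6 of 8 cases. Irf9, the DNA-binding subunit of ISGF3, led with 14.9 (11.0 to 19.8) from 46 fragments at chromosome 14, 55608842 to 55609442. Irf8, a factor of myeloid cells, followed with 9.83 (5.44 to 16.6) from 12 fragments over a background of 0.323, at chromosome 8, 120739711 to 120739954. Irf1, induced by interferon-gamma, had 8.36 (5.06 to 13.1) at a single site. The others with a peak were Irf5 with 7.41 (4.01 to 12.8), Irf3, which is activated by phosphorylation rather than induced, with 7.26 (4.71 to 10.7), and Irf2, an antagonist of Irf1, with 6.96 (4.47 to 10.4). Apart from Irf9 the intervals of these factors overlapped, and those of Irf8, Irf1 and Irf5 also overlapped that of Irf9. Irf4 of lymphocytes and Irf7, the factor that amplifies interferon-alpha production, had no peak. Irf3 and Irf8 had 3 peaks each and Irf2 had 2.

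All 5 genes of the receptors and Stat2 had peaks (100%, 56.6 to 100, against 44.9% of all protein-coding genes), with a median highest value of 10.4. Ifnar1, a chain of the type I receptor, had 2 broad peaks of 11.7 (8.73 to 15.4) and 8.85 (6.55 to 11.7), at chromosome 16, 91504965 to 91506170 and 91506557 to 91507382. Its partner Ifnar2 had 10.4 (7.08 to 14.8) and 9.42 (5.93 to 14.3). For the interferon-gamma receptor, Ifngr1 had 9.78 (7.35 to 12.8) from 52 fragments and Ifngr2 had 6.44 (4.22 to 9.45) from 24, with overlapping intervals. Stat2 had 11.1 (8.01 to 15.0) at chromosome 10, 128290456 to 128291717, 3.35 (2.13 to 5.03) close to the 3′ end, and another peak at its start.

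Effector genes had peaks in 8 of 14 cases (57.1%, 32.6 to 78.6), an interval that holds the 44.9% of all protein-coding genes. Isg15, which encodes a ubiquitin-like modifier, had 14.9 (10.2 to 20.9) from 31 fragments over a background of 1.15 at chromosome 4, 156199642 to 156200197, although its span is only 1395 bp. The Ifit genes, whose products bind foreign RNA ends, were alike. Ifit3 had 13.8 (10.9 to 17.3) from 74 fragments, Ifit1 had 13.5 (9.77 to 18.2) from 41 and Ifit2 had 11.3 (8.27 to 15.2) from 43. The Ifit2 site was the widest of the members' peaks, 2620 bp at chromosome 19, 34572881 to 34575500, against a median of 322 bp for all peaks. Rsad2, the gene of the antiviral radical SAM enzyme viperin, had 9.75 (6.14 to 14.8).

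Lower values were found in the guanylate-binding protein genes Gbp3, with 7.09 (4.30 to 11.1), and Gbp2, with 5.78 (3.27 to 9.59) and 5.43 (3.33 to 8.42), and in the exonuclease gene Isg20, with 5.54 (3.07 to 9.36). The intervals of Gbp2 and Isg20 lay below those of Isg15, Ifit1 and Ifit3, and overlapped that of Ifit2. No peak was found in Mx1, Mx2, Ifi27, Ifi35, Ifi44 or Bst2, the gene of the virus-tethering protein tetherin. The gene table gives Mx1 and Mx2 as transcribed pseudogenes, and most inbred strains carry defective copies of both.

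Peaks of the Ifit and receptor genes can be seen within their clusters. The Ifit1 summit also lay in the span of Ifit1bl1, which runs on the opposite strand, and the peaks carry no strand. Ifit3b, a close copy of Ifit3, had a peak of 13.8 (11.1 to 17.0) from 87 fragments. How reads of such copies were shared out is not given, so the values of Ifit1 and Ifit3 are uncertain in that respect. On chromosome 16, Ifnar2, Il10rb, Ifnar1 and Ifngr2 lie within 191 kb and hold 6 peaks, all of them inside these genes.

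**Figure D2:**
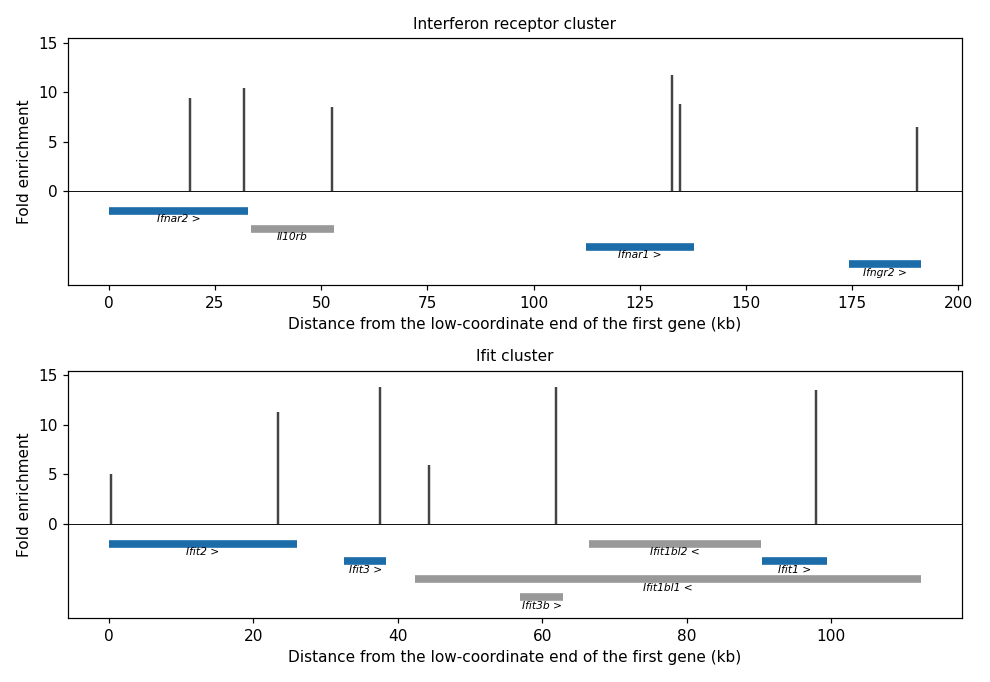
Fold enrichment of each peak (vertical lines at the summit) over the interferon receptor cluster and the Ifit cluster, against distance in kb from the low-coordinate end of the first gene. Bars are protein-coding gene spans, blue for members and grey for others, with arrows for the strand where known; each cluster holds 6 peaks, from 6.44 to 11.7 in the first and from 5.0 to 13.8 in the second.

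Whether a gene has a peak depends on how long and how abundant its RNA is as well as on methylation, and the peak list gives no RNA level for genes outside it. In whole uterus, fewer cells of a type and less RNA per cell cannot be told apart. Within gene span classes the members' shares were 6 of 7 at 5 to 10 kb, where 38.2% of all protein-coding genes had a peak, 11 of 16 at 10 to 20 kb (46.4%) and 8 of 11 at 20 to 50 kb (51.1%). Only Bst2 and Irf7 had spans of 2 to 5 kb and neither had a peak, against 33.5% of all. Of the 11 members without a peak, Irf7 was the 1 with a summit within 5 kb of its span. It had 2 there, of 22.3 and 4.04, both in the neighbouring gene Phrf1. Upstream of Oasl2, 2 further summits of 12.9 and 13.6 lay 3377 and 4426 bp from its span, in no listed gene, and were not counted as its own.

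**Figure D3:**
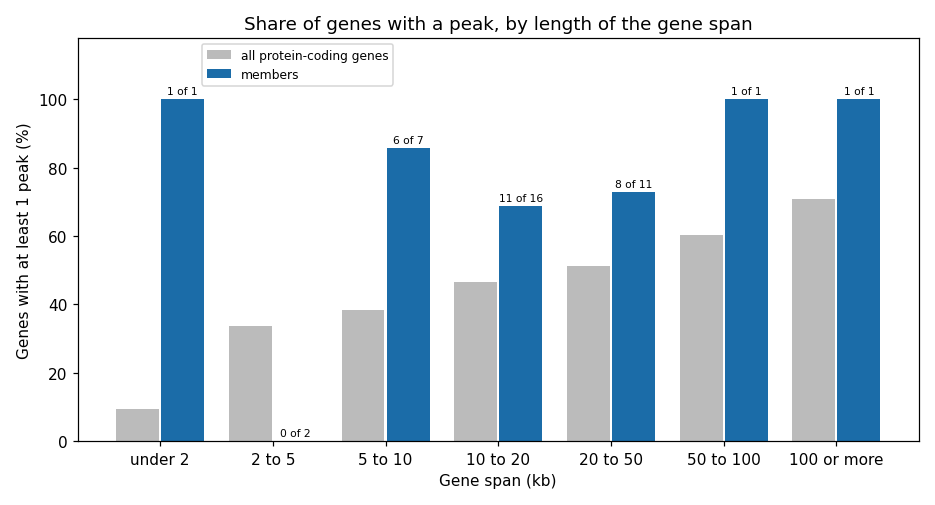
Percent of genes with at least 1 peak, by gene span in kb, for all protein-coding genes (grey) and for the 39 members (blue, with counts above the bars). The members' share is above the grey bar in each class but 2 to 5 kb, and 4 of the 7 classes hold only 1 or 2 members.

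Markers of cell types were counted by the same rule, by which 44.9% of all protein-coding genes had a peak. Peaks were found in 4 of 4 stroma, 4 of 5 epithelium, 2 of 2 endothelium and 2 of 2 smooth muscle markers. These groups are too small to be set against that share. Of 10 leukocyte and macrophage markers 5 had a peak, from 5.20 in Itgax to 9.84 in C1qb, while Ptprc, Cd68, Csf1r and Cd3e were among those with none. Siglech and Bst2, which mark plasmacytoid dendritic cells, had none either. Several members, such as Irf8 and Irf5, are known from leukocytes. The part of these cells in their peaks was not tested.

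In the direction of the gene, most strongest sites lay toward the 3′ end, where m6A is known to gather around stop codons and in last exons. With strand known for 27 members that have a peak, the strongest summit lay within 2 kb of the 3′ end of the span in 14 (51.9%, 34.0 to 69.3), against 32.9% of 7834 protein-coding genes. The median distance to that end was 1627 bp, against 3931 bp. Beyond 75% of the span, counted from the 5′ end, lay 19 of the 27 (70.4%), against 50.5% of all. The tables used give no exons, so sites could not be placed in coding sequence, UTR or intron.

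The counts by role are read against the 50.5% of all protein-coding genes with strand and a peak. The strongest site lay beyond 75% of the span in all 5 genes of the receptors and Stat2, 6 of 8 effectors, 4 of 6 sensors and dsRNA-binding proteins, and in both Mavs and Ikbke. Of the Irf factors only Irf2 and Irf9, 2 of 6, had it there. In Irf3 the strongest summit lay 603 bp from the 5′ end (11.6% along), in Irf8 17.4%, in Irf1 39.8% and in Irf5 67.6% along the span. The remaining genes with it before 75% were Ifih1, Adar, Isg20 at 45.0% and Isg15 at 71.6%. These are counts of few genes, and a difference between roles was not tested. In Irf3 and Irf8 the interval of the strongest peak overlapped those of the gene's other peaks, so which peak is strongest is uncertain there. Irf8 had 9.83 (5.44 to 16.6) at 17.4% and 5.57 (3.01 to 9.60) at 92.3% of its span.

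**Figure D4:**
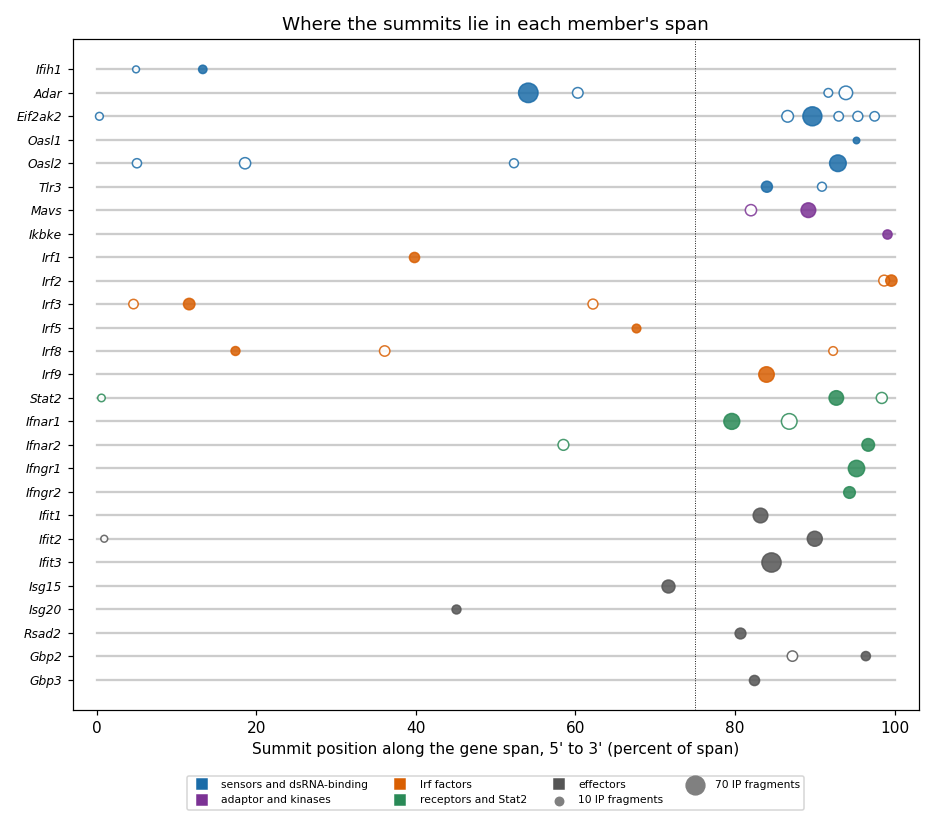
Position of every summit along the gene span, from the 5′ end (0) to the 3′ end (100 percent), for the 27 members with a peak and known strand. Filled points are the strongest peak, area rises with the number of IP fragments, and the dotted line marks 75% of the span, beyond which lies the strongest site of 19 members; Irf1, Irf3, Irf5 and Irf8 lie to its left.

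A second kind of site lay at the start of the gene. In 4 of the 27 members (14.8%, 5.92 to 32.5) a summit was within 300 bp of a listed start, against 15.4% of all protein-coding genes, so such sites were about as common as elsewhere. Their deposited values were low and rested on few fragments. Eif2ak2 had 6.57 (3.25 to 12.2) from 8 fragments, 111 bp after its start. Stat2 had 6.23 (2.97 to 12.0) from 7, 135 bp after its start, where Apof shares the span, and Ifit2 had 5.0 (2.19 to 10.6) from 5, 104 bp after its start. In these 3 genes the peak covered the listed start itself, and the peak of Eif2ak2 lay in a span shared with Gm26637. Irf3 had 4.82 (2.78 to 7.86) from 14 fragments, 240 bp after its start. With nothing added to pileup and background, the start sites had 25.0 in Ifit2, 24.6 in Stat2 and 21.7 in Eif2ak2. By that ratio the strongest sites of these genes had 14.9, 14.9 and 15.0. In Irf3 the start site had 6.62 and the strongest site 9.97. The anti-m6A antibody is known to bind also the methylated adenosine next to the cap (m6Am), which these data do not separate.

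The first 30 transcribed bases of these 4 genes, from the first listed start of each in RefSeq, are shown because the start sites lie on or beside them, with any GGAC, the core of the commonest m6A motif, in capitals.
Stat2, chr10:128270498-128270527, plus strand: gcggggagggcgtggctaagctttcggtcg
Eif2ak2, chr17:78882543-78882572, minus strand: gaaggcggagtccgccgggaaaacgaaaca
Ifit2, chr19:34550694-34550723, plus strand: agtgatgtggGGACccagcgagatggagct
Irf3, chr7:44997648-44997677, plus strand: aggcggaaggccaaaaaagggcatttgagg
Of the 4, Ifit2 alone held GGAC in the first 50 bases, and its other listed start held it too. Over all members with a listed start, 9 of 34 (26.5%) had GGAC in the first 50 bases, against 22.9% of protein-coding genes. The summits lie downstream of the printed bases, and the motif was not looked for at the summits themselves. The summit of Ifit2 lies upstream of its other listed start.

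Members with a peak had a median of 2 peaks, as did all protein-coding genes with a peak. A smaller share of the members had 3 or more. Of the 28 members with a peak, 13 had 1 (46.4%, against 41.7% of all protein-coding genes with a peak), 9 had 2 and 6 had 3 or more (21.4% against 32.3%). The members' 54 peaks had a median pileup of 18.5 IP fragments (range 4 to 76) and a median background of 1.90, against 18.0 and 1.42 for all peaks. Only 6 rested on fewer than 10 fragments (11.1%, against 20.9%).

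Since 1 is added to both parts of the fold, sites at low background are drawn down. Without it, the same strongest peaks had a median of 15.7, against 17.3 for all protein-coding genes with a peak. With the highest peak of each gene chosen again by this ratio, the medians were 17.6 and 18.4. In that order Irf8 stood first with 37.2 and Isg15 next with 26.9. Ifih1 with 26.0, Ifit2 with 25.0 and Stat2 with 24.6 followed, each through a weaker peak of 5 to 7 fragments, and Adar came after them with 23.3. Ifih1 thus moved from rank 23 to rank 3. The peaks of Ifit2 and Stat2 in this order are their sites at the start of the gene. Oasl1, lowest by the deposited value, had 20.8, a ratio made from 4 fragments.

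**Figure D5:**
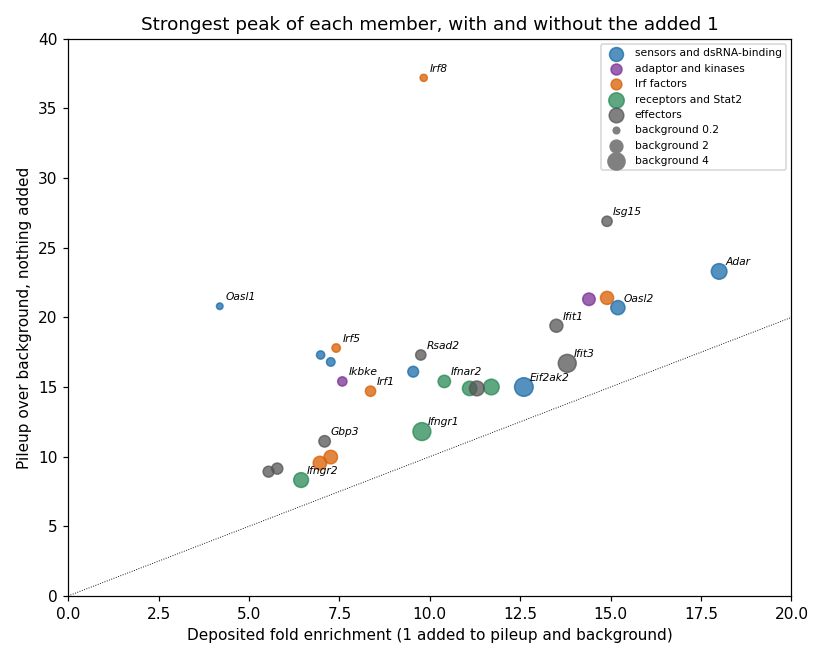
Strongest peak of each of the 28 members with a peak: the deposited fold enrichment, with 1 added to pileup and background (horizontal axis), against the pileup over background with nothing added (vertical axis). Point area rises with the background, and the dotted line marks equal values; Irf8 (9.83 and 37.2) and Oasl1 (4.19 and 20.8), both at low background, lie farthest above it.

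Beyond the 39 members, 80 further genes of the pathway were listed, and all 80 matched the gene table, 2 of them through older symbols. Of these, 55 had a peak (68.8%, 57.9 to 77.8), against 44.9% of all protein-coding genes, with a median highest value of 9.37 against 9.36. This list, like that of the members, was chosen with earlier results of these data known. Its share describes the list and is no independent support for the share of the members. The counts of subgroups below are of few genes each and are read against the same 44.9%. They were sorted by function after their values had been seen. Of 8 interferon ligand genes 1 had a peak, and this was Ifne, the epithelial interferon-epsilon, with 10.2 (6.16 to 16.0) from 17 fragments. Ifnb1, Ifna1, Ifna2, Ifng, Ifnk, Ifnl2 and Ifnl3 had none. Of the 8, 7 have spans under 2 kb, a class in which 9.28% of all protein-coding genes had a peak, so 1 of 7 there is no result about ligands. The receptor chains of interferon-epsilon are Ifnar1 and Ifnar2, which both had peaks.

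Jak1, a receptor-bound kinase, had 6.54 (4.76 to 8.79), whereas Tyk2, which works beside it at the type I receptor, had no peak. The intervals of the ISGF3 members Irf9 and Stat2, with 14.9 and 11.1, overlapped. The genes for Irf2-binding proteins were higher than Irf2 itself, with 19.4 (16.2 to 23.1) in Irf2bp2, 18.0 (13.2 to 24.0) in Irf2bp1 and 10.7 (8.21 to 13.7) in Irf2bpl. The interval of Irf2bpl overlapped that of Irf2 and the other intervals did not.

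Sensors and adaptors of nucleic acids had peaks in 15 of 20 cases. Their median highest value was 7.37, below the 9.36 of all protein-coding genes with a peak. Above that median were, among others, Ddx58 (RIG-I, a sensor of RNA ends) with 8.61 (6.30 to 11.5) and the DNA sensor Cgas with 14.3 (8.51 to 22.6). Ticam1, the adaptor of TLR3, had 16.5 (12.0 to 22.3). Low values were found too, such as 3.57 (1.63 to 7.17) in Tlr7 and 6.34 (3.24 to 11.5) in Tlr8. Dhx58, Aim2, Ifi213, Tlr9 and Prkra had no peak. All 4 listed Oas1 genes lacked a peak, as Oas2 and Oas3 did. Of 12 guanylate-binding proteins and immunity-related GTPases 11 had a peak, led by Irgm2 with 19.0 (13.5 to 26.0) and Gbp7 with 16.1 (12.0 to 21.1), Gbp6 being the exception. Ifitm3, which blocks virus entry, had 16.6 (13.1 to 20.7), above the intervals of the neighbouring Ifitm1, 7.21 (4.84 to 10.4), and Ifitm2, 5.31 (3.81 to 7.21). How reads that match several genes of a family were shared out is not given. Values and missing peaks of the Oas, guanylate-binding protein and Ifitm genes are therefore uncertain in that respect.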

How the data were processed

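Per the labels' protocols, polyA RNA was precipitated with an anti-m6A antibody and sequenced strand-specifically, as was its input. The submitters' processing notes name mm10, the aligner HISAT2 (2.2.1) and the peak caller MACS3 (3.0.0a7). Not given in the sources used here are caller options and any pooling. The authors deposited 1 peak list, with a fold enrichment (a ratio), a p-value and a q-value as −log10, and a score that follows q (10 times −log10 q within 1 in 26584 peaks). The lowest deposited −log10 q was 1.31. These values describe and rank peaks within the list only.

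Pileup and background at each summit were solved from fold and Poisson p. The pileup came out whole, within 0.05 of a step, for 99.97% of peaks, and the solver was tested on simulated data (100% of 2000 returned), which checks the solving alone. Names, spans, strand and promoter windows came from RefSeq tables (GRCm38.p6). The input sample enters only through the deposited values. Named genes are the 39 members, the listed pathway genes and markers, and genes sharing a summit. Members and lists were chosen with earlier results of these data known. Alternatives were stricter limits on q, fold and pileup, other rules of overlap, no pseudocount, and each gene's median peak in place of its highest. Software was scipy 1.17.1, pandas 2.3.3, matplotlib 3.10.9 and numpy 2.4.6 under Python 3.11.15. Coordinates count from 1. Some listed genes are not reported here.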

Additional observations from a re-analysis of the deposited data

How the results depend on the processing

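Between 26 and 28 members had a peak under the 6 alternatives for choosing and assigning peaks. Oasl1 was lost with a −log10 q of at least 5 and with a pileup of at least 10, and Ifit1 and Ikbke, whose only peaks lie in shared spans, with summits in exactly 1 gene. The members' peaks numbered 47 to 55 and the further pathway genes with a peak 50 to 55. The median of the highest fold enrichment stayed between 9.76 and 9.78 under these 6 alternatives, was 7.76 with each gene's median peak, and moved to 17.6 with no pseudocount and the highest peak chosen again, or 15.7 with the same peaks, by the construction of that alternative. Of the 28 members with a peak, 19 and 16 then left their counting interval, and 6 with the median peak (Stat2, Mavs, Adar, Eif2ak2, Oasl2 and Ifit2). No paired analysis was possible because there is 1 IP sample, with no replicate. Depth limits the weaker sites: 6 of the 54 peaks rest on fewer than 10 fragments.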
